A study of Mus musculus with 12 samples.

Results

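Gene expression was compared between 6 mouse lung tumors, 3 labelled KP-PPARαΔ13 and 3 labelled KP, out of the 12 tumors of the series. The 6 were taken by their group label, and all 39017 genes listed in the deposited counts were considered, of which 16527 had enough counts to be tested. All mice were C57BL/6, carried a Lox-Stop-Lox allele of oncogenic K-ras (G12D), floxed p53 and the CCSP-rtTA transgene, and have the genotype label wt/wt, where the series varies *Slc2a1*, the gene of the glucose transporter Glut1. Each received 6000 viral units of a lentivirus into the trachea, which carries Cre under the PGK promoter and PPARαΔ13, a dominant negative PPARα, under a doxycycline-responsive promoter. The mice of the KP-PPARαΔ13 tumors were fed chow containing doxycycline (625 mg/kg) over 15 days, those of the KP tumors a regular diet, and all tumors were taken 26 weeks after initiation. KP mice thus carry the same uninduced vector, and the effects of the drug and of the induced protein cannot be told apart. The rtTA activator is driven by the promoter of CCSP (*Scgb1a1*), a gene of club cells. RNA came from the cells left after magnetic removal of CD45-positive leukocytes. By the mouse number in the labels, KP 1 and KP 2 came from 1 mouse, so the 3 KP tumors came from 2 mice and the 3 KP-PPARαΔ13 tumors from 3. All KP tumors were from females, and KP-PPARαΔ13 1 and 3 were from males, so sex differs in part with the group. The other 6 tumors of the series have the genotype label fl/fl, with 3 per diet and the same viral dose and time. They are used below as a separate measurement.

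PPARα is a nuclear receptor that is activated by fatty acids and their derivatives. It binds DNA as a dimer with RXR, at elements made of a direct repeat of AGGTCA with 1 base between the copies (DR1), and turns on genes of fatty acid uptake, peroxisomal and mitochondrial β-oxidation and ketone body synthesis. The Δ13 form lacks the end of the protein that recruits coactivators, and so can occupy the elements without activating them. PPARα is best known from liver and other tissues that burn fatty acids, and its targets are in part shared with PPARγ and PPARδ.

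The total count was 28623764 to 31877838 per tumor, so depth limited only weakly expressed genes. KP 2 stood apart from the other tumors. Its root mean square log2 difference to each of the others was 1.13 to 1.48, against 0.894 to 1.14 between any other pair, and it had 142 genes more than 4-fold above every other tumor, where the others had 4 to 29. Among these was *Tff3*, a goblet cell peptide, at 107.5 CPM (count scaled by library size and TMM factor) in KP 2 and 0 to 11.1 CPM in the rest. The alveolar type 1 gene *Clic5* had 7.55 CPM in KP 2 and 162.4 to 730.5 CPM in the rest. Values without KP 2 are given beside the results that it turns or moves most.

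**Figure D1:**
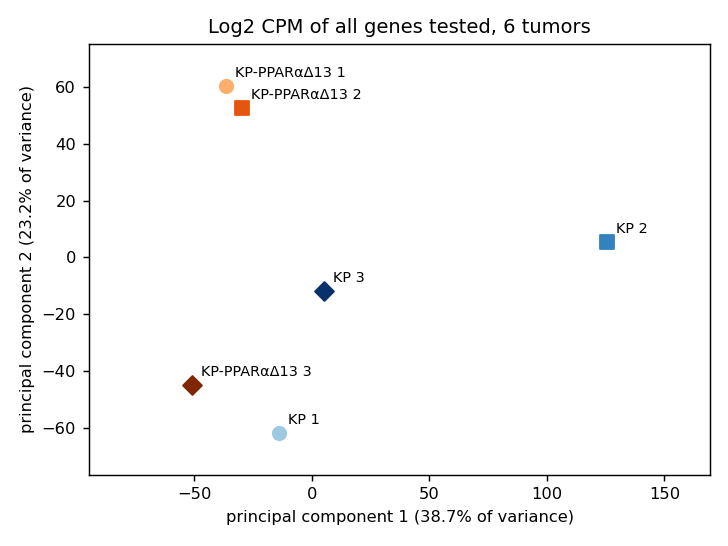
Principal components of log2 CPM over all genes tested, with 1 point for each tumor (blue, KP; orange, KP-PPARαΔ13). KP 2 lies alone at the right of component 1, which holds 38.7% of the variance, and component 2 (23.2%) does not separate the labels, since KP-PPARαΔ13 3 lies at the bottom with KP 1 and the other KP-PPARαΔ13 tumors at the top.

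The induced gene was examined first. *Ppara* (mm10 chromosome 15, 85734983 to 85802819, plus strand) had 15.7, 10.5 and 9.54 CPM in KP 1 to 3, and 2.71, 64.6 and 246.1 CPM in KP-PPARαΔ13 1 to 3. The groups overlapped, because KP-PPARαΔ13 1 was below every KP tumor while the other two were above all of them. The log2 fold change was 3.13 (SE 1.03, adjusted p = 0.328 from edgeR, 0.0237 from DESeq2), and 1.5 without KP-PPARαΔ13 3. The counts do not separate the transgene from the endogenous gene. *Scgb1a1*, whose promoter drives rtTA, had 42.3, 8.19 and 10.2 CPM in KP and 5.55, 17.6 and 21.3 CPM in KP-PPARαΔ13, with KP-PPARαΔ13 1 again the lowest of the 6. The group name is therefore used below as a label only, and the library labelled KP-PPARαΔ13 1 showed no rise of *Ppara*. Sex-linked genes fitted the labels of all 6 tumors: *Ddx3y*, on the Y chromosome, had 141.1 and 79.0 CPM in KP-PPARαΔ13 1 and 3 and at most 0.0968 CPM elsewhere.

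Across all genes, 1 passed an adjusted p-value of 0.05 in edgeR's quasi-likelihood test, 0.00605% of those tested, and 11.4% had an unadjusted p-value under 0.05. All 3 KP-PPARαΔ13 tumors lay above all 3 KP tumors in 6.55% of genes and below them in 6.7%. DESeq2, an alternative with another estimate of the spread, called 0.962% of its 16110 adjusted genes higher and 1.35% lower, 155 and 217 genes, and 117 in all without KP 2, of which 93 were among the 372. The count of calls thus rests on the tool, and each gene is given below by its values.

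The gene that passed was *Anpep* (mm10 chromosome 7, 79821803 to 79861059, minus strand), which encodes aminopeptidase N (CD13), a peptidase of the cell surface. Its level was 52.3, 77.1 and 46.1 CPM in KP 1 to 3 and 8.36, 10.7 and 12.1 CPM in KP-PPARαΔ13 1 to 3. Every KP-PPARαΔ13 tumor, including the one without raised *Ppara*, lay far below the lowest KP tumor. *Anpep* fell by 2.50 on the log2 scale (SE 0.262, adjusted p = 0.0146 from edgeR), from a mean of 58.5 ± 16.4 to 10.4 ± 1.88 CPM (SD, n = 3 each). The call was lost with sex as a covariate (adjusted p = 0.247), without KP 1 (0.0516) and without KP-PPARαΔ13 1, 2 or 3 (0.167, 0.177 and 0.0793). It was also lost in edgeR with the 6 tumors alone (adjusted p = 0.289) and with a replicate block (0.0508). With counts summed by mouse, which joins KP 1 and KP 2, no gene had an adjusted p below 0.119. Without KP 2 the log2 fold change was -2.25 (adjusted p = 0.04). The series also has 6 tumors of the genotype labelled fl/fl, KPG1, 3 per diet, which share no tumor with those above. *Slc2a1* had 30.2, 64.0 and 39.9 CPM in KPG1 and 23.7, 53.2 and 54.5 CPM in KPG1-PPARαΔ13, not below the KP tumors as a group, so its count does not show a deletion and KPG1 is used as a label only. These tumors came from 4 mice, with KPG1 1 and 2 from 1 mouse and KPG1-PPARαΔ13 1 and 3 from another. All KPG1 tumors were from males, and KPG1-PPARαΔ13 1 and 3 were from females. *Anpep* had 31.6, 23.4 and 31.9 CPM in KPG1 and 11.7, 12.7 and 15.5 CPM in KPG1-PPARαΔ13, again without overlap. Its log2 fold change was -1.12 (SE 0.251, unadjusted p = 0.000857, adjusted p = 0.42 from edgeR).

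The 250 bases before the RefSeq start of *Anpep* and of 3 further genes among those with the smallest p-values that were lower are printed because the elements of PPARα can be looked for in them (RefSeq, GRCm38.p6). The RefSeq start used for *Anpep* lies inside the GENCODE gene given above, so other starts of the gene are not covered by its window. Capitals mark AGGTCA. Neither *Anpep* nor *Pex11a* holds it in this window, *Mthfd1* holds 1 copy and *Ppm1h* 2.

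Anpep, chr7:79848211-79848460, minus strand: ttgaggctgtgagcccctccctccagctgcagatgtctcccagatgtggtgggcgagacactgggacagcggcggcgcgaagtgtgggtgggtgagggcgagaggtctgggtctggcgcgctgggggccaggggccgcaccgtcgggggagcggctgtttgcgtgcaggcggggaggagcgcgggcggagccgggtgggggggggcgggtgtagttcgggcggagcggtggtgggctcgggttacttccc
Pex11a, chr7:79743132-79743381, minus strand: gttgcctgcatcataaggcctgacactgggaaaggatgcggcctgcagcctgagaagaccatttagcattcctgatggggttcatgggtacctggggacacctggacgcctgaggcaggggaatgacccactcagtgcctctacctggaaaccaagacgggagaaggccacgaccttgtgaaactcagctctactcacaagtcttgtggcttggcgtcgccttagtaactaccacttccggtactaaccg
Mthfd1, chr12:76254982-76255231, plus strand: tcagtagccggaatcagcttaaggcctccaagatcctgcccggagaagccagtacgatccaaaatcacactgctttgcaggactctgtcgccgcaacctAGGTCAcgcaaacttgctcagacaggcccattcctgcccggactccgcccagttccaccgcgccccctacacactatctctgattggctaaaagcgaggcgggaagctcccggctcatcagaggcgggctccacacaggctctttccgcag
Ppm1h, chr10:122678512-122678761, plus strand: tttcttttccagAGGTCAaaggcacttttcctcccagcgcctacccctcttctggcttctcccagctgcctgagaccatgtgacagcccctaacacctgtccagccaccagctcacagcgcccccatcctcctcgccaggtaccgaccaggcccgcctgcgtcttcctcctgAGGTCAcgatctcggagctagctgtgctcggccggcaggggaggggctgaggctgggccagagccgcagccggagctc

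The full element, AGGTCANAGGTCA, was found on either strand in 0.0335% of all 32851 promoter windows. It was in none of the 23 windows of the leading genes or the 32 of the classical PPARα targets. Of the 33 classical targets, 26 had a window. Only these exact letters were searched, so elements that differ from them or lie outside the windows were not covered. The result thus does not show that the genes lack an element. A single AGGTCA on either strand occurred in 14.0% of all windows. It was in 4 of the 11 windows of the leading lower genes, 1 of the 12 of the leading higher genes and 7 of the 32 of the classical targets. The 4 include overlapping windows of *Arhgef38* that hold the same copy, so they do not stand for 4 separate copies or genes. The leading genes are those with the smallest p-values, 12 in each direction, among genes that reached 5 CPM on average and whose groups were apart, and 10 of each 12 had a window.

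The leading lower genes after *Anpep* were *Mthfd1*, *Ppm1h*, *Rpgrip1*, *Spink5*, *Pex11a*, *Tbc1d4*, *Gstt2*, *Adamts1*, *Arhgef38*, *Itga9* and *Cd164l2*, none of which passed edgeR's threshold (adjusted p 0.197 to 0.256), while DESeq2 called all 12. *Mthfd1*, a cytosolic enzyme of folate metabolism, had 314.1, 270.3 and 257.3 CPM in KP and 155.5, 144.0 and 128.0 CPM in KP-PPARαΔ13, a log2 fold change of -0.98 (SE 0.155, adjusted p = 0.197 from edgeR). *Tbc1d4*, a Rab GTPase-activating protein that holds back glucose transporter vesicles in insulin-responsive cells, had 83.3, 93.9 and 63.8 CPM against 30.4, 28.2 and 15.3 CPM. *Itga9*, an integrin α subunit, had 310.0, 344.4 and 293.1 CPM against 86.4, 128.4 and 175.3 CPM. The lowest KP value of these genes was above the highest KP-PPARαΔ13 value by the rule that chose them. *Spink5*, a serine protease inhibitor, was the one most dependent on KP 2, with 22.0, 66.9 and 5.46 CPM against 1.65, 1.26 and 0.737 CPM, and a log2 fold change of -4.69 that was -3.50 without KP 2.

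The leading higher genes were *Acsbg1*, *Avil*, *Palmd*, *Mmp10*, *Hilpda*, *Tes*, *Tnnt2*, *Rab11fip5*, *Tnfaip8*, *Pls1*, *Cxcl1* and *Timp1*, with adjusted p of 0.133 to 0.256 in edgeR and all 12 called by DESeq2. *Acsbg1* (mm10 chromosome 9, 54604877 to 54661870, minus strand), which activates long-chain fatty acids to acyl-CoA, had 0.719, 1.00 and 1.74 CPM in KP and 13.5, 21.9 and 25.9 CPM in KP-PPARαΔ13. The log2 fold change was 4.14 (SE 0.583, adjusted p = 0.133 from edgeR), and it passed with no filter on low counts (adjusted p = 0.0496). *Mmp10*, a secreted matrix metalloproteinase, had 0.514, 0.182 and 0.94 CPM against 10.7, 8.97 and 10.7 CPM. *Avil*, which encodes the actin-binding protein advillin, had 2.53, 2.24 and 4.07 CPM against 21.3, 25 and 15.9 CPM, and *Pls1*, which encodes plastin 1, had 33.8, 17.2 and 34.7 CPM against 95.2, 91.4 and 93.8 CPM. *Cxcl1*, a neutrophil chemokine, had 0.924, 1.94 and 5.99 CPM against 26.6, 20.7 and 27.4 CPM. All 24 leading genes had the same sign without KP 2 and with sex as a covariate. KP-PPARαΔ13 1, the tumor with low *Ppara*, was the farthest from KP in 6 of the 12 higher genes and 3 of the 12 lower ones. The counts were 3 and 3 for KP-PPARαΔ13 2, and 3 and 6 for KP-PPARαΔ13 3. The rule that chose the genes put all 3 of these tumors beyond every KP tumor, and a relation to *Ppara* was not tested.

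**Figure D2:**
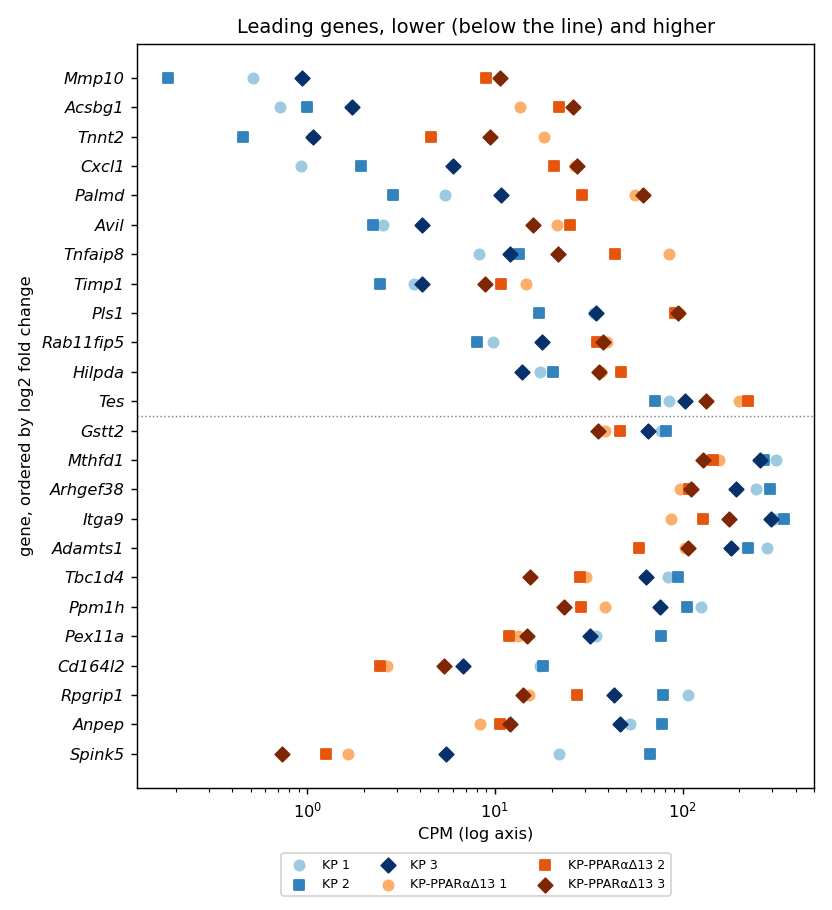
CPM on a log axis of the 12 leading genes in each direction, with 1 symbol for each tumor (blue, KP; orange, KP-PPARαΔ13). The colors do not mix in any row, which the choice of genes fixes, and the 3 orange symbols lie closer together than the blue ones in genes such as *Pls1* (91.4 to 95.2 CPM).

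The KPG1 tumors gave a further measurement of the same 24 genes. They entered the choice only through the estimate of spread that all 12 tumors share. The choice favored genes with a small shared spread and required 5 CPM on average. Both can make p-values in KPG1 smaller too, so the shares over all genes below are not a like baseline. Of the 12 higher genes, 11 had a positive log2 fold change with doxycycline in KPG1 and 8 had one with an unadjusted p-value under 0.05, which 6.25% of all genes had in that direction. Of the 12 lower genes, 10 were negative and 4 had an unadjusted p-value under 0.05, against 4.5% of all genes. None of the 24 had such a p-value in the opposite direction, and none passed the adjusted threshold (lowest adjusted p 0.141 and 0.42 in edgeR). The median log2 fold change was 0.88 in KPG1 against 2.48 in KP for the higher genes, and -0.40 against -1.73 for the lower. The genes were chosen for their size in KP, so the smaller medians are partly given by that choice. *Acsbg1* had 0.36, 0.998 and 0.529 CPM in KPG1 and 6.55, 19.8 and 8.10 CPM in KPG1-PPARαΔ13, a log2 fold change of 4.18, about that in KP. *Cxcl1* went the other way, with 11.9, 9.26 and 4.53 CPM against 6.72, 1.99 and 4.46 CPM (log2 fold change -0.96). *Itga9* had 197.7, 310.0 and 262.4 CPM against 447.4, 344.8 and 344.4 CPM, higher in every KPG1-PPARαΔ13 tumor. No gene passed the test of the difference between the genotypes (lowest adjusted p 0.33 in edgeR, with 1952 genes under an unadjusted 0.05).

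**Figure D3:**
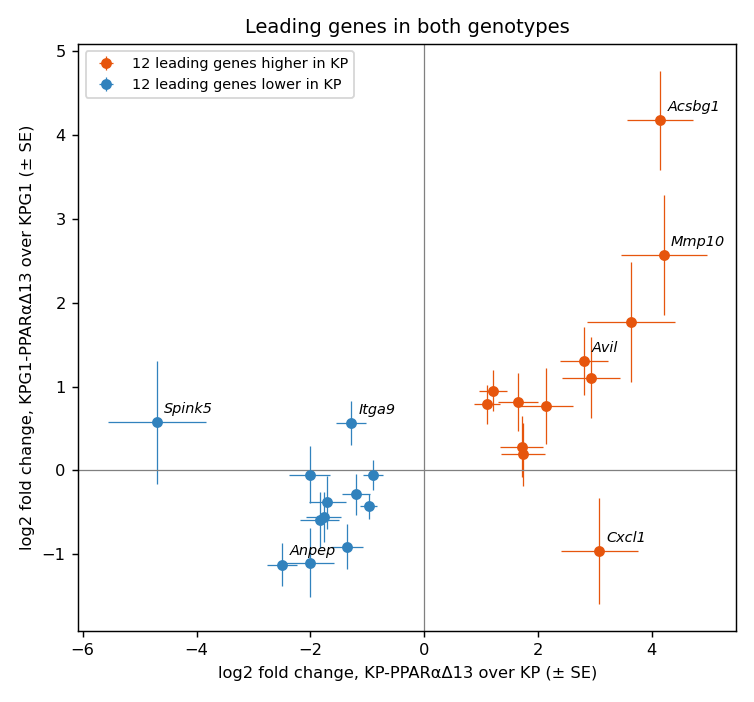
Log2 fold change with doxycycline of the 24 leading genes in KP (x axis) and in the separate KPG1 tumors (y axis), with bars of 1 SE. *Acsbg1* lies at 4.14 and 4.18, while *Cxcl1*, *Spink5* and *Itga9* lie across the zero line in KPG1.

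Of the receptors and cofactors, 8 of 18 were higher and 10 lower, with a median log2 fold change of -0.02 beside -0.01 over all genes. *Pparg*, the receptor of the same family known for adipocytes, had 40.1, 43.7 and 41.7 CPM in KP and 64.9, 80.3 and 50.6 CPM in KP-PPARαΔ13 (log2 fold change 0.64, SE 0.244, adjusted p = 0.375 from edgeR). *Ppard*, the broadly expressed member, had 50.1, 52.1 and 49.4 CPM against 68.7, 63.6 and 85.5 CPM. The coactivator *Ncoa2* had 113.2, 82.2 and 80.5 CPM against 72.8, 56.8 and 70.4 CPM. None of these overlapped between the groups, and none passed either test. *Ppara*, given above, was the 1 gene of the list that DESeq2 called.

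Of the 33 classical PPARα targets, 29 were tested, with 14 higher, 15 lower and a median of -0.13. A shift of the list as a set was not tested. The mean log2 CPM of the list was 3.92 to 4.13 in KP. It was lower, at 3.61 and 3.66, in KP-PPARαΔ13 1 and 3, and within the KP range in KP-PPARαΔ13 2. Of the 29, 3 lay above all KP tumors (10.3%, beside 6.55% of all genes) and 2 below (6.9%, beside 6.7%), and the rest overlapped between the groups. None passed edgeR's threshold, and DESeq2 called *Pex11a* and *G0s2*, both lower. *Pex11a*, which takes part in the division of peroxisomes, had 34.5, 76.3 and 32 CPM in KP and 13.3, 11.9 and 14.8 CPM in KP-PPARαΔ13. The log2 fold change was -1.83 (SE 0.344, adjusted p = 0.249 from edgeR, 0.000345 from DESeq2), and -1.32 without KP 2. *G0s2*, an inhibitor of triglyceride lipase, had 7.29, 6.46 and 4.91 CPM against 1.10, 0.742 and 1.47 CPM (log2 fold change -2.49, SE 0.687, adjusted p = 0.305 from edgeR). In both genes the 3 KP-PPARαΔ13 tumors were close to each other and below all KP tumors.

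Other targets lay on the opposite side. *Angptl4*, a secreted inhibitor of lipoprotein lipase that hypoxia also induces, had 15.3, 5.12 and 30.3 CPM in KP and 45.2, 50 and 52.8 CPM in KP-PPARαΔ13 (log2 fold change 1.55, SE 0.528, adjusted p = 0.335 from edgeR). *Ehhadh*, the bifunctional enzyme of peroxisomal β-oxidation, had 10.4, 10.7 and 8.32 CPM against 11, 12.3 and 15.6 CPM. *Creb3l3*, a liver transcription factor of lipid metabolism, had 0.0685, 0.758 and 0.626 CPM against 1.27, 4.0 and 2.08 CPM. *Cpt1a*, which makes acylcarnitines for mitochondrial β-oxidation, overlapped between the groups, with 108.8, 109.8 and 118.3 CPM against 145.5, 86.9 and 217.3 CPM. *Cd36*, a fatty acid transporter, had 798.3, 1888 and 1307 CPM against 816.2, 733.5 and 907.6 CPM. *Plin2*, a lipid droplet coat protein, had 112.7, 89.5 and 167.6 CPM against 163.4, 117.2 and 118.8 CPM. *Cyp4a10* and *Cyp4a14*, strongly induced through PPARα in liver, had no count in any of the 6 tumors.

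**Figure D4:**
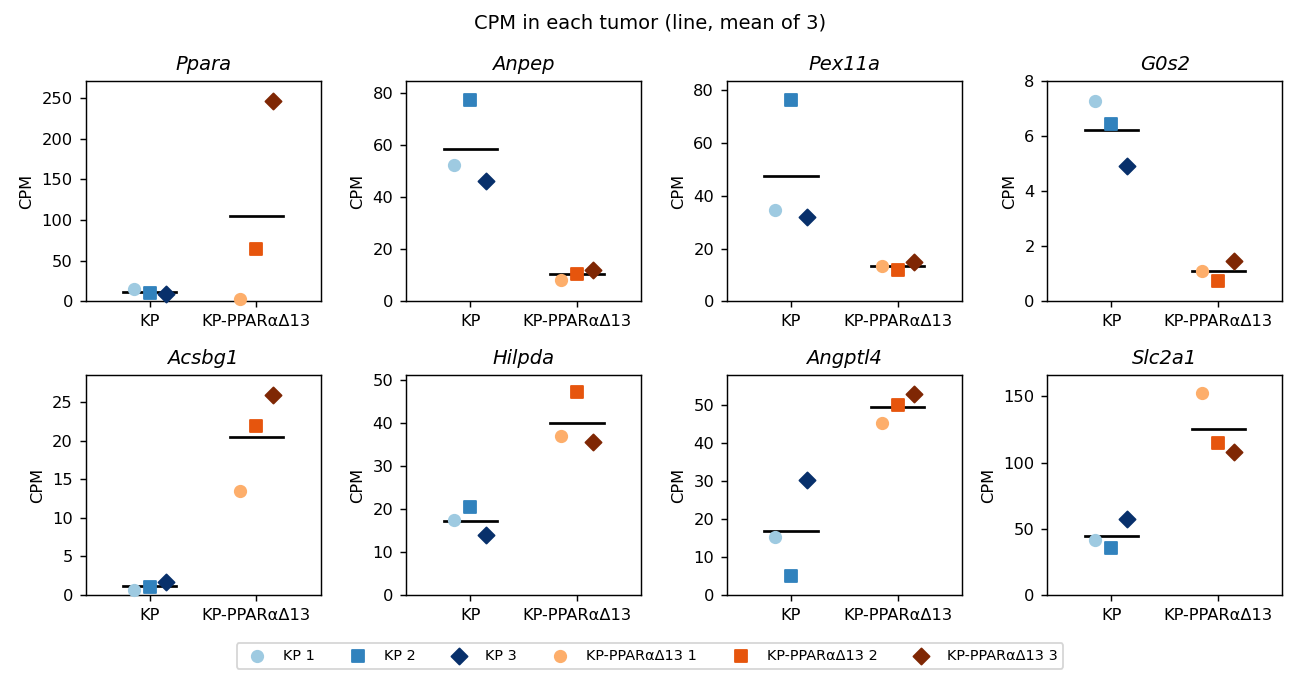
CPM of 8 genes in each tumor on linear axes from 0, with a line at the mean of 3 (blue, KP; orange, KP-PPARαΔ13). *Ppara* spreads from 2.71 to 246.1 CPM among the KP-PPARαΔ13 tumors, while in the other 7 genes these tumors lie on one side of all KP tumors. The 7 were picked with their values known, so the choice fixes this separation. Of all genes, 6.55% lay above and 6.7% below all KP tumors in this way.

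Peroxins, the proteins that build and divide peroxisomes, were lower in 16 of the 18 tested (median -0.21, and -0.15 without KP 2), none past edgeR's threshold. Besides *Pex11a*, *Pxmp2* had 5.65, 6.4 and 3.90 CPM against 2.81, 3.68 and 3.05 CPM, and *Pex3*, needed for the insertion of membrane proteins, 37.7, 35.8 and 30.2 CPM against 28.7, 26.0 and 28.6 CPM. Their differences were small beside that of *Pex11a*, and 3 of the 18 were without overlap on the lower side (16.7%, beside 6.7% of all genes). In KPG1, 11 of the 18 were lower (median -0.07). Of 43 peroxisomal enzymes, 25 were lower and 18 higher (median -0.07), and 6 were without overlap on the lower side (14.0%, beside 6.7% of all genes) and 3 on the higher side (6.98%, beside 6.55%). The lower ones included *Ddo*, which oxidizes D-aspartate (6.37, 8.85 and 1.98 CPM against 1.03, 0.291 and 0.402 CPM). They also included *Pecr*, a reductase of trans-enoyl-CoA, with 36.9, 35.4 and 16.1 CPM against 15.5, 14.4 and 12 CPM. DESeq2 called *Ddo*, *Nudt19* and *Pipox* lower, and no peroxisomal enzyme higher. *Pipox*, which breaks down pipecolic acid, rested on KP 2, with 76.5 CPM there and 13.4 and 11.8 CPM in KP 1 and 3, and its log2 fold change of -2.21 was -0.78 without that tumor. Mitochondrial β-oxidation genes were higher in 18 of 29 (median 0.06, and -0.10 without KP 2).

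Fatty acid synthesis had 11 higher and 12 lower genes (median -0.05), with 5 of the 23 lower without overlap (21.7%, beside 6.7% of all genes) and 1 higher. *Acaca*, the carboxylase that makes malonyl-CoA, had 179.0, 146.4 and 184.1 CPM in KP and 76.2, 67.5 and 101.0 CPM in KP-PPARαΔ13 (log2 fold change -1.06, SE 0.229, adjusted p = 0.256 from edgeR). *Acly*, which supplies cytosolic acetyl-CoA, had 576.7, 809.4 and 714.1 CPM against 482.9, 390.8 and 517.0 CPM. *Mlxipl*, the carbohydrate-responsive transcription factor ChREBP, had 1.88, 18.7 and 2.54 CPM against 0.411, 0.484 and 0.502 CPM, with a log2 fold change of -4.04 that was -2.24 without KP 2. *Elovl2*, an elongase of polyunsaturated fatty acids, also had most of its counts in KP 2, with 90.2 CPM there, and its log2 fold change of -5.83 was -2.49 without that tumor. DESeq2 called *Acaca*, *Mlxipl* and *Elovl2*. Of the 21 tested lipid droplet genes, *Hilpda*, an inhibitor of the same lipase as *G0s2* and also a hypoxia-induced gene, was the one that DESeq2 called higher. It had 17.4, 20.4 and 14.0 CPM against 36.8, 47.0 and 35.6 CPM (log2 fold change 1.21, SE 0.244, adjusted p = 0.256 from edgeR), and 0.95 in KPG1.

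Cholesterol synthesis and uptake had 23 of 26 genes higher, with a median of 0.64 (0.51 without KP 2, 0.29 in KPG1) and 7 without overlap on the higher side, or 26.9% beside 6.55% of all genes, and 1 on the lower side. *Cyp51*, which demethylates lanosterol, had 28.3, 19.7 and 35.3 CPM in KP and 126.5, 78.5 and 26.8 CPM in KP-PPARαΔ13, high in 2 of the 3 tumors and within the KP range in the third. *Fdft1*, squalene synthase, had 50.4, 40.8 and 46.8 CPM against 95.0, 73.5 and 50.8 CPM. *Sc5d*, a late desaturase of the pathway, had 15.4, 20.2 and 18.4 CPM against 42.8, 25.2 and 30.4 CPM. The mean log2 CPM of the list was 4.78 to 5.02 in KP and 5.89, 5.41 and 5.0 in KP-PPARαΔ13 1 to 3, and no gene passed either test.

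Glycolysis showed the same order of the KP-PPARαΔ13 tumors. Of 21 genes, 18 were higher (median 0.64, and 0.52 without KP 2), 6 of them without overlap (28.6%, beside 6.55% of all genes). *Slc2a1*, which imports glucose, had 41.7, 35.3 and 57.7 CPM in KP and 152.5, 115.1 and 108.1 CPM in KP-PPARαΔ13. The log2 fold change was 1.48 (SE 0.362, adjusted p = 0.289 from edgeR, 0.011 from DESeq2, and 0.14 from DESeq2 without KP 2). *Pkm*, pyruvate kinase, had 684.2, 537.4 and 797.1 CPM against 2134, 1358 and 1012 CPM, and *Slc16a3*, the lactate exporter Mct4, 17.8, 19.7 and 14.5 CPM against 83.9, 111.2 and 18.8 CPM. The mean log2 CPM of the list was 6.43 to 6.74 in KP and 7.66, 7.39 and 6.74 in KP-PPARαΔ13 1 to 3, so the third tumor lay at the top of the KP range. In KPG1, 14 of the 21 were lower (median -0.20), and that difference between genotypes was not tested for the list. Other HIF targets were higher in 19 of 23 (median 0.52, and -0.14 in KPG1), among them *Ddit4*, an inhibitor of mTORC1, with 61.7, 44.1 and 56.2 CPM against 97.1, 81.3 and 66.6 CPM.

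NRF2 and glutathione genes were higher in 29 of 31 (median 0.48, 0.35 without KP 2 and -0.26 in KPG1). The glutathione transferase *Gsta4* had 135.0, 144.1 and 133.5 CPM in KP and 230.2, 238.9 and 245.0 CPM in KP-PPARαΔ13, with little spread within either group (log2 fold change 0.79, SE 0.229, adjusted p = 0.308 from edgeR). *Abcc1*, an exporter of glutathione conjugates, had 13, 7.64 and 14.2 CPM against 51.4, 20.7 and 50.2 CPM. *Gsr*, glutathione reductase, had 101.1, 82.6 and 74.8 CPM against 152.4, 118.3 and 130.1 CPM. *Gsta1* had 0.0685, 0.212 and 0.0696 CPM against 1.30, 5.04 and 2.11 CPM, and shares much of its sequence with *Gsta2*, so its reads may be split between them. Nuclear-encoded respiratory chain subunits were higher in 29 of 47 (median 0.13, and 0.05 without KP 2), with 9 without overlap on the higher side (19.1%, beside 6.55% of all genes) and 1 on the lower side. An example is *Cycs*, cytochrome c (41.4, 46.9 and 55 CPM against 70.8, 80.7 and 60.2 CPM). Their median in KPG1 was 0.01.

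Among cell-surface and secreted peptidases and their inhibitors, 22 of the 33 tested were higher and 11 lower (median 0.50), with 9 higher (27.3%, beside 6.55% of all genes) and 2 lower (6.06%, beside 6.7%) without overlap. *Timp1*, an inhibitor of matrix metalloproteinases, had 3.70, 2.46 and 4.11 CPM in KP and 14.6, 10.8 and 8.88 CPM in KP-PPARαΔ13. *Mmp9*, a gelatinase, had 0.685, 0.0606 and 0.383 CPM against 2.54, 1.52 and 7.67 CPM, and *Plat*, tissue plasminogen activator, 27.7, 27.4 and 41.8 CPM against 70.9, 75.0 and 62.9 CPM. DESeq2 called these 3 higher, and *Anpep* was the one called lower by either tool.

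Lineage genes of the tumor cells were described next. Alveolar type 2 markers were lower in 11 of 13 (median -0.51), with no gene past either test. *Lpcat1*, which makes surfactant phospholipid, had 876.9, 847.7 and 1252 CPM in KP and 664.8, 427.4 and 812.0 CPM in KP-PPARαΔ13, and the lung transcription factor *Nkx2-1* 486.6, 284.2 and 293.1 CPM against 208.4, 272.1 and 224.2 CPM. *Cebpa* had 325.2, 371.5 and 314.0 CPM against 179.7, 148.5 and 340.7 CPM. The summed CPM of the 13 genes was 25334 and 28258 in KP-PPARαΔ13 1 and 2 but 66156 in KP-PPARαΔ13 3, which was above every KP tumor (30180 to 64222). Alveolar type 1 markers were higher in 9 of 10, and their median of 0.62 was 0.14 without KP 2. *Emp2* did not overlap, with 445.2, 159.1 and 526.4 CPM against 889.9, 805.4 and 950.4 CPM. *Igfbp2*, a binding protein of insulin-like growth factors, was without overlap on the lower side, with 0.719, 1.0 and 0.87 CPM against 0.48, 0.452 and 0.301 CPM.

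Genes of the stomach and gut lineage had 12 higher and 4 lower of 16 (median 0.59, and 0.91 without KP 2), and 5 were without overlap on the higher side (31.2%, beside 6.55% of all genes). *Gkn1*, a gastric mucosal protein, had 1.20, 1.70 and 1.98 CPM in KP and 11.8, 14.7 and 11.4 CPM in KP-PPARαΔ13. The trefoil peptide *Tff1* had 26.9, 3.15 and 6.16 CPM against 111.3, 219.7 and 99.5 CPM, and the intestinal keratin *Krt20* 5.96, 1.00 and 6.23 CPM against 47.7, 29.7 and 58.3 CPM. DESeq2 called these 3, with edgeR adjusted p of 0.305 to 0.327. *Tff3* lay the other way, with 0.205, 107.5 and 11.1 CPM against 0, 0 and 0.369 CPM, and overlapped between the groups. Genes of mesenchymal transition and dedifferentiation were higher in 16 of 17 (median 0.65, and 0.40 without KP 2). The matrix protein *Tnc* had 10.4, 6.12 and 33.5 CPM against 84.0, 62.6 and 86.6 CPM, and the keratin *Krt19* 278.5, 162.3 and 415.9 CPM against 653.5, 494.3 and 695.1 CPM.

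Markers of other cells were followed in the same tumors. Leukocyte markers did not differ in one direction, with 9 of 16 tested higher (median 0.04, and -0.20 without KP 2). *Ptprc*, which encodes CD45, had 31.5, 1.88 and 7.69 CPM in KP and 4.11, 5.2 and 9.85 CPM in KP-PPARαΔ13, and the T cell gene *Cd3e* was at most 0.137 CPM. The summed CPM of the 16 leukocyte markers was 977.1, 1029 and 3044 in KP and 623.6, 1268 and 4479 in KP-PPARαΔ13 1 to 3. Leukocyte RNA was thus present in every tumor, at levels that differed between tumors of the same group. Endothelial markers had a median of 0.17, which was -0.12 without KP 2, and their summed CPM ranged from 251.6 in KP-PPARαΔ13 1 to 1327 in KP-PPARαΔ13 3, against 360.3 to 752.5 in KP. Fibroblast and pericyte markers were higher in 8 of 16 (median 0.03, and -0.19 without KP 2). Of the 16, 3 collagens were without overlap on the higher side (18.8%, beside 6.55% of all genes) and 1 gene on the lower side (6.25%, beside 6.7%). *Col1a1* had 39.0, 29.6 and 69.2 CPM in KP and 90.7, 143.8 and 77.8 CPM in KP-PPARαΔ13. *Dcn*, a fibroblast proteoglycan, had 123.5 CPM in KP-PPARαΔ13 1 and 4.79 to 10.8 CPM elsewhere. Of the 6 mesothelial markers, 4 were tested and all 4 were higher (median 1.57, 1.67 without KP 2 and 0.41 in KPG1). Among the 4, 2 were without overlap on the higher side (50%, beside 6.55% of all genes). *Msln* had 36.7, 2.36 and 42.8 CPM against 158.1, 241.9 and 294.3 CPM, while *Wt1* and *Calb2* were at or under 0.226 CPM in every tumor. Erythroid genes were higher in 5 of 7 (median 1.35), with *Alas2*, the erythroid heme enzyme, at 22.8, 12.6 and 24.2 CPM against 70.9, 51.1 and 30.0 CPM. The one erythroid gene that DESeq2 called was lower, *Epb42*, a protein of the red cell membrane skeleton, with 1.4, 106.9 and 4.66 CPM against 0.343, 0.678 and 0.536 CPM, and its log2 fold change of -6.17 was -2.54 without KP 2. The part of such cells in the differences above was not tested, and fewer cells of a type and less RNA per cell cannot be told apart in these bulk samples.

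The remaining lists are given by their counts. Fatty acid uptake and activation had 6 higher and 12 lower genes of 18 (median -0.18), and *Acsbg1* was the one that DESeq2 called. Bile acid genes had 7 higher and 8 lower of 15 (median -0.06). Mitochondrial ribosomal proteins were higher in 31 of 38, by a median of 0.09, with 5 without overlap on the higher side (13.2%, beside 6.55% of all genes) and 1 on the lower side. *Mrpl21*, a protein of the large subunit, had 10.9, 14.2 and 25 CPM against 30.5, 26.5 and 27.0 CPM, and *Mrpl23*, the one apart on the lower side, 23.5, 32.8 and 28.8 CPM against 18.8, 20.8 and 18.0 CPM. ATF4 and unfolded protein genes were higher in 26 of 34 (median 0.28), such as *Lonp1*, a mitochondrial protease, with 112.5, 108.5 and 118.8 CPM against 199.5, 177.6 and 121.0 CPM. Interferon-stimulated genes split evenly, 18 higher and 18 lower (median 0.03, and -0.05 without KP 2). *Cmpk2*, a mitochondrial nucleotide kinase of this group, had 6.13, 12.9 and 6.30 CPM against 3.77, 3.10 and 4.52 CPM. MHC and antigen presentation genes were lower in 13 of 17 (median -0.20, and -0.39 without KP 2), all with overlap, and KP 1 had the highest summed level, at 10597 CPM against 2325.8 to 5886.4 CPM in the rest. Cell cycle genes had 22 higher and 14 lower of 36 (median 0.07, and 0.26 without KP 2), club cell markers 5 and 5 (median -0.17, and -0.06) and ciliated cell markers 1 and 7 (median -0.41, and -0.67). No gene of these lists but *Acsbg1* passed either test.

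**Figure D5:**
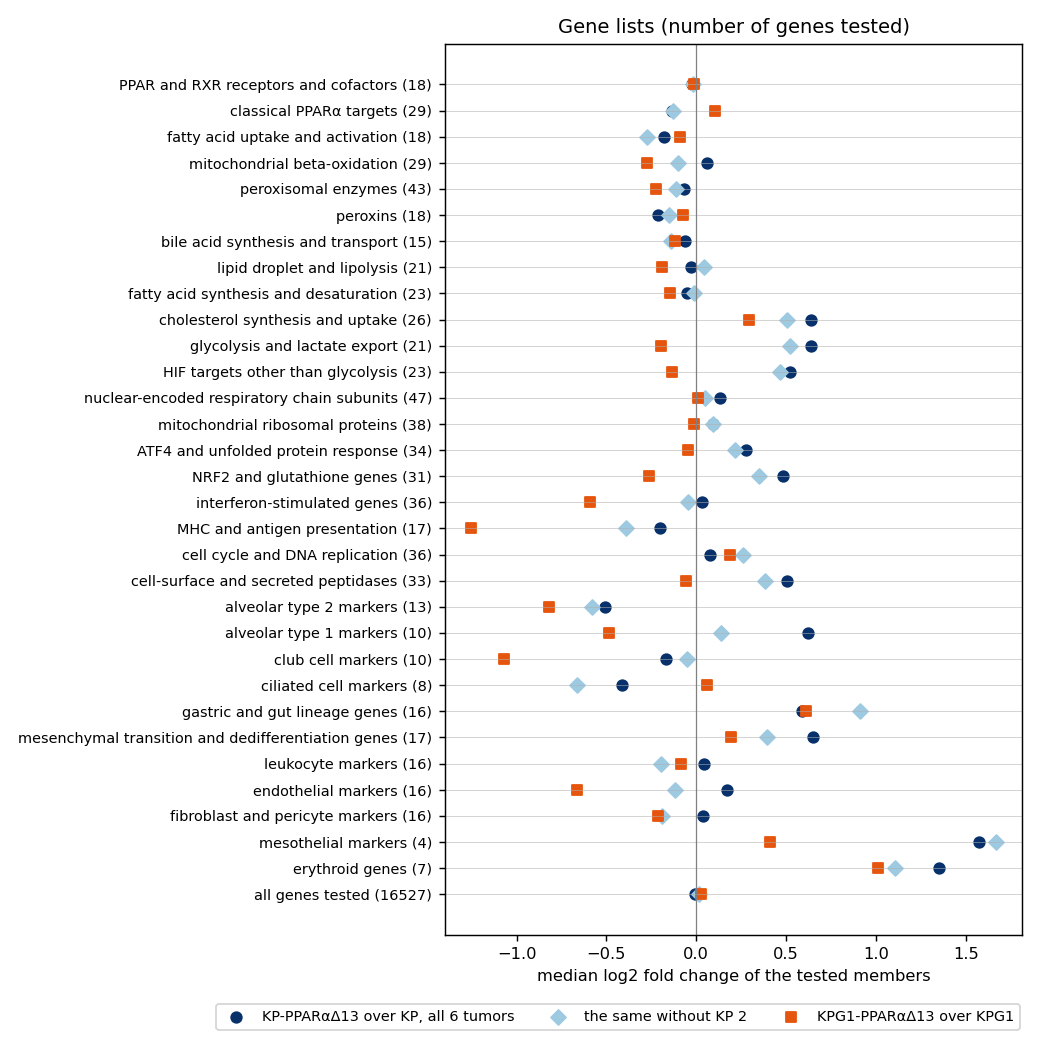
Median log2 fold change of the tested members of each gene list in KP-PPARαΔ13 against KP (dark circles), without KP 2 (light diamonds) and in KPG1-PPARαΔ13 against KPG1 (orange squares). The median of all genes lies near 0, and the lists on cholesterol (0.64), glycolysis (0.64) and NRF2 (0.48) lie to its right in KP, whereas glycolysis and NRF2 lie to its left in KPG1 (-0.20 and -0.26). In KP the mesothelial (1.57), erythroid (1.35) and mesenchymal transition (0.65) lists lie farther right than these. The alveolar type 1 (0.62), stomach and gut (0.59), HIF (0.52) and peptidase (0.50) lists lie farther right than NRF2.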

How the data were processed

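Reads were trimmed with Cutadapt and aligned to mm10 with HISAT2 by the authors, who deposited raw counts of reads per gene (featureCounts 1.4.4 per the submitters' processing notes; annotation release not given in the sources used here). The files of all 12 tumors equalled the combined table. A deposited table of log2 values was not used.

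Counts were tested with edgeR 4.0.16 under R 4.3.3 (TMM, filterByExpr by group, glmQLFit and glmQLFTest, two-sided, Benjamini-Hochberg, threshold 0.05) in one fit of 12 tumors, whose 4 groups share an estimate of spread (biological coefficient of variation 0.44). The SE was taken as |log2 fold change|/√F. Tumors of a mouse were counted separately, so p-values measure the spread between tumors. Mean log2 CPM used a prior count of 2. Members and the 32 gene lists were chosen with earlier results of these data known, so no list was tested. The genes to name were those past the threshold, the 12 leading in each direction, the receptor and PPARα target lists, up to 4 of lowest p from every other list, and *Ppara*, *Slc2a1*, *Scgb1a1* and sex-linked genes. The text names part of these and covers other list members by counts, and some members are not reported here. Any gene outside this rule was chosen after its values were seen. Positions are from GENCODE M21. The procedure was tested on simulated data. Alternatives were DESeq2 1.42.0, voom in limma 3.58.1, other scalings and filters, the 6 tumors alone, sex, a replicate block, mice summed and each tumor left out. Chosen after seeing the data were voom on genes of 20 TPM or more, and DESeq2 without KP 2.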

Additional observations from a re-analysis of the deposited data

How the results depend on the processing

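Depth was close to equal among tumors, and the spread between tumors set the precision. The count of genes past the threshold was 1 in edgeR. It was 372 with DESeq2, 117 with DESeq2 without KP 2, and 2 without a filter on low counts (*Anpep* and *Acsbg1*). It was 0 in edgeR with the 6 tumors alone, with sex as a covariate, with the replicate block and with counts summed by mouse, with 1245, 1463, 1632 and 1598 genes at an unadjusted p under 0.05. Leaving out single tumors gave 0 to 1 genes, with 1132 to 2396 unadjusted. limma voom, the other scalings and a mean of at least 20 TPM gave 1, with either test. In the replicate block, where numbers do not pair the tumors (correlations of the deviations -0.055, 0.09 and 0.07), the adjusted p of *Anpep* was 0.0508. *Anpep* was lower under all 18 alternatives, with log2 fold changes of -2.64 to -2.24, and was called in 10 of them (adjusted p 8.18e-16 to 0.289). Of the genes named in the text, *Plin2* changed sign without KP 2 (-0.076, and -0.065 in DESeq2) or KP-PPARαΔ13 1 (-0.063), within -0.076 to 0.40 over the tumors left out. *Scgb1a1* changed sign with sex as a covariate (0.84), the replicate block (0.32) or without KP 1 (0.69), within -0.83 to 0.69 over the tumors left out. *Ptprc* ranged from -1.62 to 0.42 over the tumors left out, and was positive without KP 1. The cause was not tested. Of the list medians under the alternatives, 557 moved by less than the spread between tumors and 32 by more. The spread was each list's own, so a list with a wide spread could move far (alveolar type 1 markers, 0.14 to 1.30). The median changed sign in 6 of the 18 alternatives for fatty acid synthesis, lipid droplet and interferon-stimulated genes. It did so in 5 for bile acid, club cell, endothelial, leukocyte and mitochondrial β-oxidation genes. Over the 18 alternatives the median was 0.33 to 0.67 for cholesterol genes, 0.42 to 0.73 for glycolysis, 0.30 to 0.56 for NRF2 genes, -0.28 to -0.13 for peroxins and -0.28 to 0.02 for classical PPARα targets.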

Other observations

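The lower end of *Pex11a* lies at -85.8 kb from that of *Anpep* on mm10 chromosome 7, and the surroundings were examined after these values were seen. Of the 21 genes besides *Anpep* that were tested and start within 500 kb of it, *Pex11a* included, 20 had a negative log2 fold change, and 6 lay below all KP tumors in all 3 KP-PPARαΔ13 tumors, against 6.7% of all genes. None lay above all KP tumors. *Kif7*, a kinesin of Hedgehog signaling, had 5.37, 7.31 and 3.38 CPM in KP 1 to 3 and 0.583, 0.355 and 0.77 CPM in KP-PPARαΔ13 1 to 3 (log2 fold change -3.22, SE 0.756, adjusted p = 0.286 from edgeR). *Mesp1*, a transcription factor of early mesoderm between *Pex11a* and *Anpep*, had 2.23, 2.82 and 0.557 CPM against 0.103, 0.129 and 0.167 CPM. Its neighbor *Mesp2* had 0.308, 1.64 and 0.87 CPM against 0.171, 0.194 and 0.1 CPM. *Idh2*, mitochondrial isocitrate dehydrogenase on the other side of *Anpep*, had 166.7, 182.3 and 175.6 CPM against 125.2, 110.0 and 134.4 CPM. *Polg*, the mitochondrial DNA polymerase, had 76.4, 88.3 and 89.5 CPM against 46.9, 60.0 and 56.0 CPM. *Ap3s2*, the next gene beyond *Anpep*, overlapped between the groups, with 45.8, 72.4 and 56.0 CPM against 56.3, 42.1 and 41.8 CPM. None of the 21 passed edgeR's threshold, and 8 had an unadjusted p-value under 0.05, all lower, beside 11.4% of all genes in either direction. *Pex11a*, whose position prompted the search, was among these 8 and among the 6. In KPG1, 17 of the 21 were negative, beside 7903 of the 16527 genes tested. Of the 17, 2 had an unadjusted p-value under 0.05, beside 4.5% of all genes in that direction.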
